A study of Caenorhabditis elegans with 83 samples.

Results

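The genes lips-6 (ZK617.2), lips-11 (T13B5.5) and lips-15 (Y38E10A.7) are 3 lipase-related genes of Caenorhabditis elegans, out of 18607 genes listed in at least 1 of the RNA tables of a study of cohesin. They were taken by their sequence names, and all 3 are listed in both RNA tables and have an adjusted p there. They were chosen by their lower RNA on depletion of the cohesin subunit SMC-3, so their own RNA values are given as a description, and nothing is supported with them. Whole L2/L3 larvae were used throughout, grown for 24 h at 22 °C, and auxin was given in the plates at 1 mM where the labels state a dose. Strain JK05 was used for depletion of SMC-3 and strain JK06 for depletion of WAPL-1. Strain CA1200 was the control, also on auxin. Auxin marks a tagged protein for breakdown and leaves its messenger RNA in place, so RNA of the depleted genes does not check the depletion. RNA was sequenced after 4 h of auxin from 2 libraries per strain, and chromatin immunoprecipitation was done after 1 h of auxin. A further strain, HW04, was immunoprecipitated with and without auxin, and no source used here names what it depletes. The labels give no alleles, no promoter for the degradation system and no strain without it, so a depletion cannot be told apart from other differences between its strain and CA1200.

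Lipases cut ester bonds in fats and release fatty acids, and in worms most stored fat lies in the intestine, with smaller stores in epidermis and germline. The lips genes are named for their resemblance to lipases and are a family apart from the lipl genes, which resemble lysosomal acid lipase. SMC-3 is a core part of the cohesin ring, which holds DNA and extrudes loops from it. PQN-85 is the worm counterpart of NIPBL, the protein that loads cohesin, and WAPL-1 takes cohesin off chromatin.

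In the authors' deposited table of the SMC-3 depletion lips-6, lips-11 and lips-15 were all lower in JK05 than in CA1200, by 5.39-fold to 9.28-fold. By the authors' deposited table of the WAPL-1 depletion lips-6 was 4.25-fold lower in JK06 than in CA1200, lips-11 2.86-fold lower and lips-15 1.28-fold lower. None of the WAPL-1 values passed the threshold, an adjusted p under 0.05. Both comparisons share the CA1200 libraries, so the JK06 values, their p-values and ranks are not independent of the choice of the genes either. Values per library were not analysed here, since the RNA tables used hold 1 row per gene for each comparison. The level of each gene in each strain was therefore worked back from the mean normalized count over both strains and the fold change, which takes each strain to have weighed equally in that mean.

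The gene lips-6 lies on chromosome IV from 12014259 to 12015636 on the minus strand, by the coordinates of the RNA tables, for which no build is stated. Its implied mean normalized count was 38.0 in JK05, 63.3 in JK06 and 270.05 in CA1200. Both depletion strains were below the control. They differed from each other by less than a standard error that treats both fits as independent. That standard error counts the error of the shared control in both fits and is likely too large. The log2 fold change of lips-6 in the authors' deposited table was −2.83 ± 0.52 (SE, 2 libraries per strain) for JK05 over CA1200, with an adjusted p of 4.53e-05 in their DESeq2 fit. For JK06 over CA1200 the authors' deposited table gave lips-6 a log2 fold change of −2.09 ± 0.71 and an unadjusted p of 0.0031, and the adjusted p of the DESeq2 fit was 1.00. That p ranked 8 among the 18308 genes with a p in that table.

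The gene lips-11 lies on chromosome II from 1108847 to 1110999 on the minus strand. Its implied mean normalized count was 15.9 in JK05, 51.7 in JK06 and 147.5 in CA1200. Here the WAPL-1 depletion stood between the SMC-3 depletion and the control. The authors' deposited table gave lips-11 a log2 fold change of −3.21 ± 0.54 for JK05 over CA1200, with an adjusted p of 2.65e-06 in the DESeq2 fit. For JK06 over CA1200 the log2 fold change of lips-11 in the authors' deposited table was −1.52 ± 0.58, with an unadjusted p of 0.00861, which ranked 16 in that table, and an adjusted DESeq2 p of 1.00.

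The gene lips-15 lies on chromosome II from 12605902 to 12606962 on the plus strand, and RefSeq (WBcel235) gives the gene 2642 bp where the tables give 1061 bp. Its implied mean normalized count was 295 in JK05, 1235 in JK06 and 1594 in CA1200. The WAPL-1 depletion was close to the control, and the SMC-3 depletion was apart from both. For lips-15 the log2 fold change in the authors' deposited table was −2.43 ± 0.55 for JK05 over CA1200, with an adjusted p of 0.00393 in the DESeq2 fit. In JK06 over CA1200 it was −0.36 ± 0.86 in the authors' deposited table, a difference smaller than its standard error, with an unadjusted p of 0.673 and an adjusted DESeq2 p of 1.00. At mean normalized counts of 800 to 1800 the median standard error over all genes was 0.29 for JK05 and 0.45 for JK06, so the log2 fold changes of lips-15 were measured less precisely than is usual at its level.

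**Figure D1:**
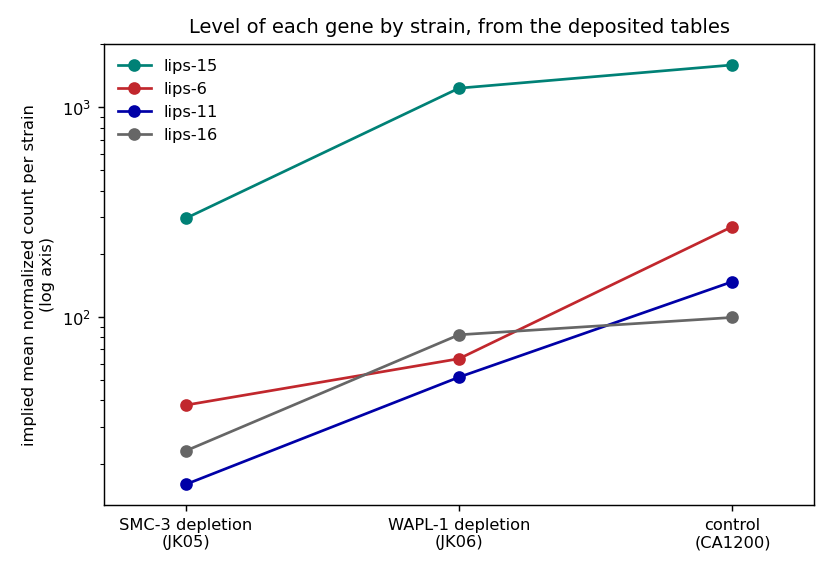
Implied mean normalized count (log axis) of lips-15, lips-6, lips-11 and lips-16 in JK05, JK06 and CA1200. Each point is 1 strain with no error bar, lines join the points of 1 gene, and lips-6 is at 38.0 in JK05 and 63.3 in JK06, against 270.05 in CA1200, while lips-15 is close to its control level in JK06.

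A count of 3 of 3 genes called lower in the SMC-3 depletion stood beside 71 of 15316 tested genes (0.464%) called lower at an adjusted p under 0.05, 34 (0.222%) called higher and so 105 (0.686%) called in all. Since this contrast chose the genes, nothing is read from that count. Among the 71 genes called lower, lips-11 had the 7th lowest log2 fold change, lips-6 the 9th and lips-15 the 13th. In the WAPL-1 depletion 0 of 18308 genes (0%) were called in the authors' DESeq2 fit. At an unadjusted p under 0.05 there were 73 genes (0.399%) in that table, and 69 of them (0.377%) were lower in JK06, lips-6 and lips-11 included. Nothing is read from their place there, since the control libraries are those of the contrast that chose them. With no effect at all a share of 0.05 would be expected, so the p-values of that table ran high. The 0 calls thus do not show that RNA was unchanged in JK06. The median log2 fold change over all tested genes was −0.01 for JK05 and 0.05 for JK06.

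**Figure D2:**
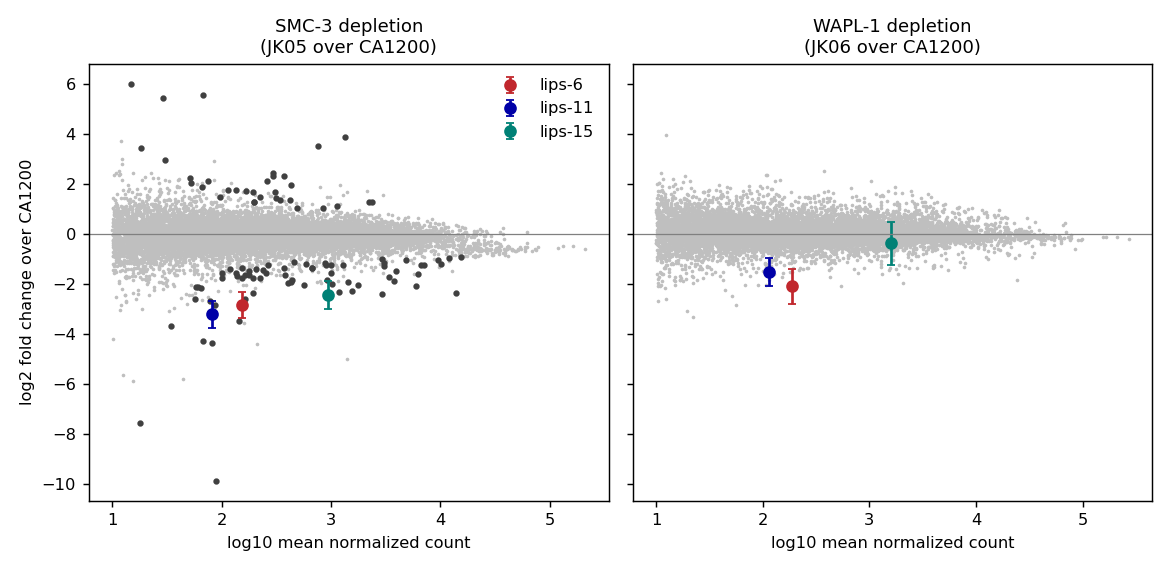
Log2 fold change over CA1200 against the log10 mean normalized count, for genes whose mean is 10 or more, in the SMC-3 depletion (left) and the WAPL-1 depletion (right). Dark points are called genes, coloured points with standard errors are lips-6, lips-11 and lips-15, and in the right panel no gene is called and lips-15 lies near 0.

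Both comparisons used the same CA1200 libraries, so no test was made between them. The log2 fold change of the SMC-3 depletion minus that of the WAPL-1 depletion was −0.74 ± 0.88 for lips-6, which is less than its standard error. It was −1.70 ± 0.79 for lips-11 and −2.07 ± 1.02 for lips-15, about the size of a doubled standard error for each. These standard errors treat both fits as independent. They thus count the error of the shared control in both fits and are likely too large. The control levels worked back from both tables rest on the same CA1200 libraries. They were thus bound to be alike for any gene once a constant scale was removed. For lips-6 the control level was 270.05 from the SMC-3 table and 268.9 from the WAPL-1 table, for lips-11 147.5 and 147.9, and for lips-15 1594 and 1587. Their likeness is therefore not a result about these genes and does not check the control level.

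Of the 17 lips family genes listed, 15 were in the tables, and lips-2 and lips-4 were not analysed here. In the SMC-3 depletion 4 of 13 tested family genes were called lower and 0 higher, beside 0.464% and 0.222% of all tested genes. Since lips-6, lips-11 and lips-15 were chosen by this contrast, 3 of those calls are not independent of the choice. The fourth was lips-16 (Y38E10A.10), which RefSeq annotates as a pseudogene and which lies near lips-15. The authors' deposited table gave lips-16 a log2 fold change of −2.11 ± 0.59 and an adjusted DESeq2 p of 0.0487 for JK05, against −0.26 ± 0.68 for JK06. The call of lips-16 was lost, at an adjusted p of 0.0576, when the adjustment ran over all DESeq2 p-values of that table. Its implied mean normalized count was 22.98 in JK05, 82.3 in JK06 and 99.5 in CA1200, the same order as for lips-15. These genes lie close together and could share reads if alike in sequence, which was not compared. No source used here says how the counting treated such reads, so the values of lips-15 and lips-16 are uncertain in that respect.

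None of the other family members was called in either depletion, and lips-12 and lips-14 have no adjusted p in the SMC-3 table and so were not tested there. The log2 fold change of lips-5 in the authors' deposited table was −0.98 ± 0.43 (adjusted DESeq2 p = 0.495) in JK05 and −0.14 in JK06. That of lips-10 in the authors' deposited table was −0.54 in JK05 and 0.07 in JK06. The log2 fold changes of lips-1, lips-3, lips-7, lips-9 and lips-17 lay between 0.21 (lips-17) and 0.47 (lips-1) in JK05 in the authors' deposited table, all above 0. In JK06 the same genes lay between −0.68 (lips-1) and 0.23 (lips-17) in the authors' deposited table. Little RNA was counted for lips-8, lips-12, lips-13 and the pseudogene lips-14, whose mean normalized counts in the authors' deposited table of the SMC-3 depletion were 4.15, 1.20, 2.93 and 0.95. Their log2 fold changes in the authors' deposited table were 0.58, 0.79, −1.46 and −1.49 in JK05 and 0.05, −0.76, −0.94 and 0.72 in JK06, with standard errors of at least 1.69.

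The median log2 fold change of the family was −0.54 over 13 tested genes in JK05, beside −0.01 over all tested genes. Without lips-6, lips-11 and lips-15 it was 0.29 over 10 genes, so its sign rested on the 3 genes. Since they were chosen by their lower RNA in this contrast, leaving them out could only raise the median. In JK06 it was −0.26 over 15 genes and −0.09 over 12 without them, beside 0.05 over all tested genes. In this family the lower RNA in JK05 was thus found in lips-6, lips-11, lips-15 and lips-16, and the remaining genes with a mean count of at least 10 were at log2 fold changes of −0.98 to 0.47.

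**Figure D3:**
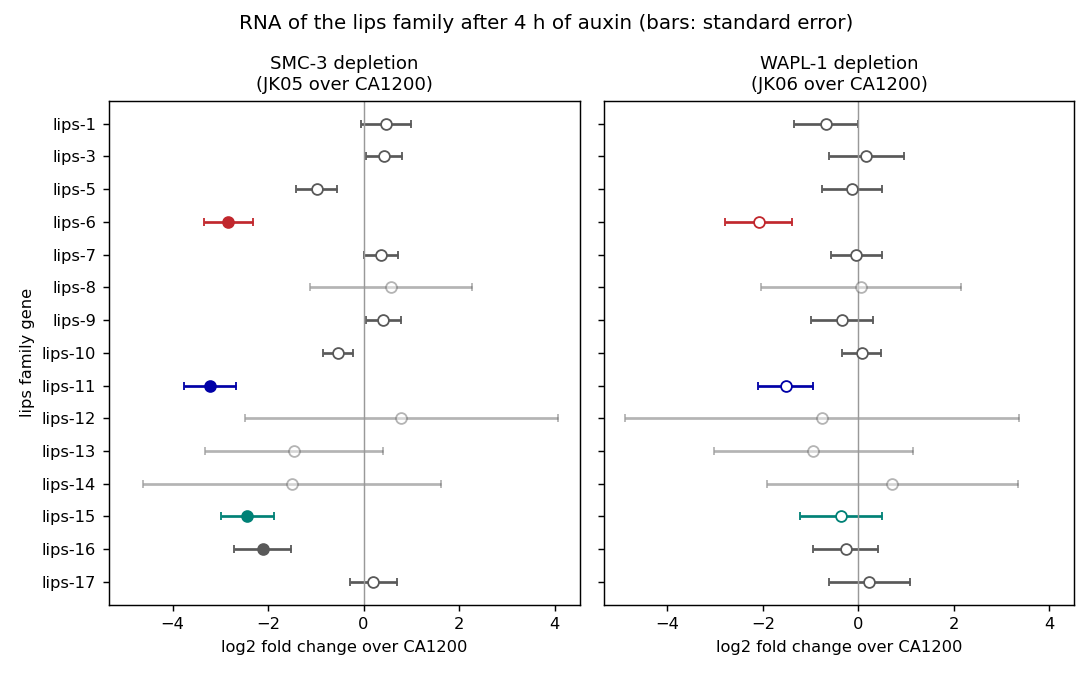
Log2 fold change over CA1200 with its standard error for the 15 lips genes in the tables, in the SMC-3 depletion (left) and the WAPL-1 depletion (right). Filled points are called at an adjusted p under 0.05 and faint points have a mean normalized count under 10 in at least 1 table; 4 points are filled on the left and none on the right.

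Other genes of fat handling were read from lists drawn up with earlier results of these data known. In JK05 0.464% of all tested genes were called lower and 0.222% higher, so 0 calls in lists this small are not a result about the lists. Of the 8 lipl genes, which encode lysosomal acid lipase-like enzymes, 0 were called in either direction in JK05, and their median log2 fold change was 0.05. The largest value among them was that of lipl-8, 2.46 ± 0.89 in JK05 in the authors' deposited table (adjusted DESeq2 p = 0.261). Among 20 tested genes of lipolysis and fatty acid oxidation 0 were called, with a median of −0.35 beside −0.01 over all tested genes. In that list 17 of the 20 were below 0, so the lack of calls does not show that these genes were unchanged. There the acyl-CoA dehydrogenase gene acdh-1 had −5.02 ± 2.07 in the authors' deposited table (adjusted DESeq2 p = 0.437), a value with a wide error. Among 19 genes of fatty acid and fat synthesis 0 were called, with a median of 0.02, and the largest value was −0.48 ± 0.50 for the desaturase gene fat-1 in the authors' deposited table (adjusted DESeq2 p = 1.00).

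Of 10 tested lipid-binding and yolk protein genes 1 was called lower and 0 higher, beside 0.464% and 0.222% of all tested genes, with a median of −0.15. The called gene was lbp-1, which encodes a fatty acid binding protein. It had a log2 fold change in the authors' deposited table of −1.90 ± 0.28 (adjusted DESeq2 p = 1.30e-08) in JK05. In JK06 it had −1.40 ± 0.42 in the authors' deposited table (unadjusted p = 0.000872, adjusted DESeq2 p = 1.00). Its implied mean normalized count was 603 in JK05, 852 in JK06 and 2251 in CA1200, and the 2 depletions share the CA1200 libraries. In JK06 none of the genes of these lists was called, and the list medians were −0.03 for lipl, −0.17 for oxidation, 0.03 for synthesis and 0.04 for lipid binding.

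In whole worms, fewer cells of a type and less RNA per cell cannot be told apart, so markers of the tissues were set beside the lips genes. In JK05 the shares of all tested genes called were 0.464% lower and 0.222% higher. Of 8 intestine markers 1 was called lower and 0 higher, with a median of −0.43. The called one was the gut protease gene cpr-1, at −0.95 ± 0.25 in the authors' deposited table (adjusted DESeq2 p = 0.0287), while the gut-specifying factor gene elt-2 was at 0.02 ± 0.30 in the authors' deposited table. The intestine markers ranged from −0.95 to 0.02 in JK05 and from −0.26 to 0.19 in JK06. Of 9 body muscle markers 1 was called lower, the titin-like gene ttn-1 at −2.34 ± 0.25 in the authors' deposited table (adjusted DESeq2 p listed as 0), and the median was −0.45. Of 8 neuron markers 1 was called higher, unc-119 at 2.46 ± 0.32 in the authors' deposited table (adjusted DESeq2 p = 1.11e-10), and the median was 0.11. The other neuron markers lay between −0.22 (unc-64) and 0.22 (ric-19) in JK05, and unc-119 was at −0.07 ± 0.50 in JK06. None of 9 epidermis and moulting, 7 germline or 5 pharynx markers was called in JK05, with medians of 0.05, −0.61 and 0.10. In JK06 0 markers were called, with medians of −0.04 (intestine), −0.12 (muscle), −0.48 (epidermis and moulting), −0.05 (neuron), −0.03 (germline) and 0.34 (pharynx). The part of tissue amounts in the lips values was not tested.

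Among the chromosome neighbours of the 3 genes lips-16 was the one gene called. The 5 genes with the nearest starts on each side were read for each, 30 in all, of which 29 were in the SMC-3 table. Of these 1 was called in JK05 and 0 in JK06, beside 0.686% and 0% of all tested genes. The genes T13B5.9, col-40, lips-12, Y38E10A.3 and Y38E10A.8 have no adjusted p in the SMC-3 table and so were not tested there. With p-values adjusted over all genes of the SMC-3 table the 1 call, lips-16, was lost, which left 0. Next to lips-6 lie unc-22, which encodes the giant muscle protein twitchin, and tgn-38, a homologue of a trans-Golgi protein. The log2 fold changes of unc-22 in the authors' deposited table were −0.26 ± 0.26 in JK05 and 0.17 ± 0.47 in JK06. The values of tgn-38 in the authors' deposited table were 0.30 ± 0.30 in JK05 and 0.24 ± 0.42 in JK06. The 8 neighbours of lips-6 with a mean count of at least 10 ranged from −0.26 to 0.40 in JK05, with a median of 0.04.

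Next to lips-11 lie the collagen gene col-40 and the family member lips-12, both hardly detected. For col-40 the authors' deposited table gave a mean normalized count of 1.77 and a log2 fold change of −2.67 ± 2.58 in JK05, an error too wide to place it, and 0.41 ± 1.88 in JK06. The nearest neighbours of lips-11 beyond them on the same strand are lips-13 upstream and T13B5.9 downstream. The 6 neighbours of lips-11 with a mean count of at least 10 ranged from −0.36 to 0.28 in JK05, with a median of −0.22. Those 6 neighbours had a median of −0.18 in JK06.

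Next to lips-15 lie Y38E10A.8 and the homeobox gene ceh-100, whose start is at −2287 bp, negative values being upstream. It had log2 fold changes in the authors' deposited table of −0.09 ± 0.26 in JK05 and −0.07 ± 0.39 in JK06. For Y38E10A.8 the authors' deposited table gave −2.77 ± 2.47 in JK05 at a mean normalized count of 1.94, and −0.63 ± 1.68 in JK06. The start of lips-16 lies 6389 bp downstream of that of lips-15, on the opposite strand, with 2 other listed genes between their starts. The 6 neighbours of lips-15 with a mean count of at least 10 ranged from −2.11 (lips-16) to 0.72 in JK05.

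**Figure D4:**
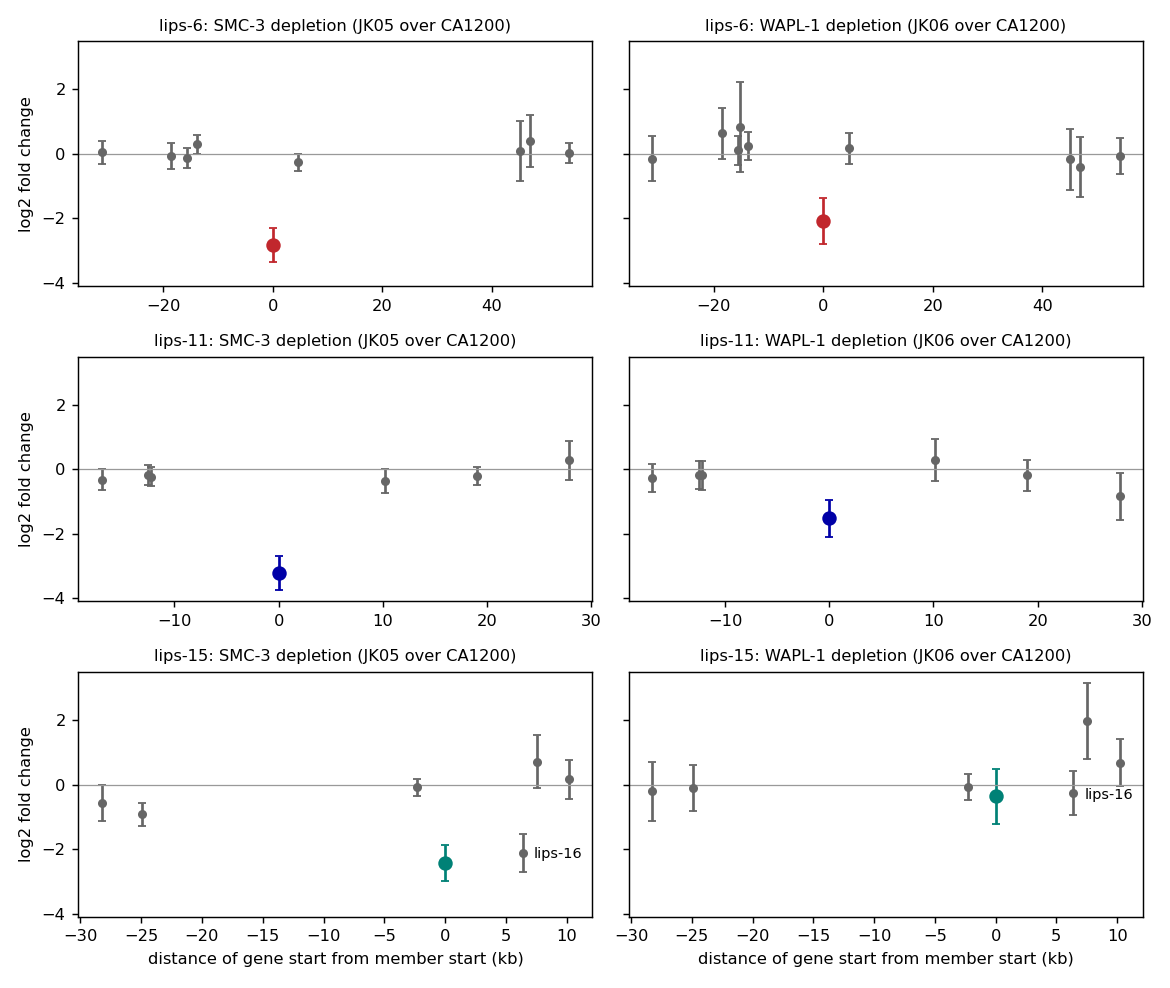
Log2 fold change over CA1200 with its standard error of each gene (coloured) and of its neighbours with a mean of 10 or more (grey), by the distance of gene starts in kb along the strand of the coloured gene; SMC-3 depletion on the left, WAPL-1 depletion on the right. In the left panels lips-16 is the grey point at −2.11, and the other grey points lie between −0.92 and 0.72.

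Genes with the most similar pair of log2 fold changes were found among 13695 genes whose mean normalized count was 10 or more in both tables, by the straight-line distance over the 2 comparisons. For lips-6 they were cpr-2 (distance 0.21), clec-25 (0.32) and Y49G5A.1 (0.33). For lips-11 they were F35F10.5 (0.34), clec-25 again (0.37) and C10C5.4 (0.58). For lips-15 they were nspc-4 (0.10), the small heat shock protein gene hsp-16.1 (0.12) and F01D5.2 (0.18). In the authors' deposited table cpr-2, a cysteine protease-related gene, had log2 fold changes of −2.96 ± 0.85 in JK05 (adjusted DESeq2 p = 0.057) and −2.25 ± 0.90 in JK06. The authors' deposited table gave hsp-16.1 −2.44 ± 0.84 in JK05 (adjusted DESeq2 p = 0.215) and −0.25 ± 0.89 in JK06. None of these genes was called in JK05, where their standard errors were 0.77 to 0.99. Which genes were named depended on the minimum, since at a mean normalized count of 50 or more 3 of the 9 were shared. The genes named there included lips-11 (for lips-6), col-141 and abf-4, each called in JK05 with an adjusted DESeq2 p in the authors' deposited table of 2.65e-06, 0.0439 and 0.0028.

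Peaks of SMC-3 and of its loader were then placed against the starts of the 3 genes. The authors combined the replicate libraries of a strain into 1 peak set per antibody, so these 6 sets carry no replicate error. After 1 h of auxin 361 SMC-3 peaks were listed for JK05, 6107 for JK06 and 6290 for CA1200, and PQN-85 had 5018 peaks in JK05, 6713 in JK06 and 5385 in CA1200. None of lips-6, lips-11 and lips-15 had a summit within 500 bp of its start in any of the 6 sets. Over all genes of the SMC-3 table the share with an SMC-3 summit that near was 0.563% in JK05, 17.5% in JK06 and 14.6% in CA1200. For PQN-85 it was 11.7% in JK05, 14.4% in JK06 and 12.2% in CA1200, so a count of 0 of 3 is not a result about the lips genes. No combined peak overlapped the body of any of the 3 genes. The share of all genes with such an overlap was not counted, so nothing about the lips genes is read from this either. The lists counted below are not independent samples, since by the peak names the combined SMC-3 set of JK06 includes the libraries of its single lists, and its combined and averaged PQN-85 lists rest on the same libraries. Peak coordinates below are in ce10, the build that the labels state for part of the samples.

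The surroundings of lips-6 held several peaks. The nearest shared site lay beyond the end of lips-6, between it and unc-22, on chromosome IV from 12012485 to 12012910 in the CA1200 SMC-3 set. Its SMC-3 summit lay 3062 bp from the start of lips-6 in JK06, with a score of 225, and 2942 bp in CA1200, with a score of 117. No SMC-3 peak was listed there in JK05, where the nearest one lay 7648 bp upstream, with a score of 63. The score is 10 times the −log10 q of the peak, it is the authors' own, and it ranks peaks within 1 set only. PQN-85 had a peak at that site in all 3 strains, at 2945 bp in JK05, 2927 bp in JK06 and 2959 bp in CA1200. That summit is also at −1693 bp from the start of unc-22 in CA1200. Over all lists, single libraries included, 7 of 9 SMC-3 lists and 6 of 8 PQN-85 lists held a peak there.

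Upstream of lips-6 a further site was listed for the loader alone. It spanned chromosome IV from 12021315 to 12021707 in the CA1200 PQN-85 set, and lips-6 is the gene with the nearest start. Its summit lay at −5936 bp from the start of lips-6 in JK05 (score 432), at −5930 bp in JK06 (score 774) and at −5929 bp in CA1200 (score 286). A peak was present there in 7 of 8 PQN-85 lists and in 0 of 9 SMC-3 lists. The share of all PQN-85 peaks that lack an SMC-3 peak was not counted. A loader peak without SMC-3, here or at the sites below, is thus not read as particular to these genes. The share of all genes with an SMC-3 summit as near as that of lips-6 was 5.04% in JK05, 37.6% in JK06 and 32.3% in CA1200. For PQN-85 it was 27.9% in JK05, 33.4% in JK06 and 28.4% in CA1200. Further upstream of lips-6, PQN-85 summits lay at −8743 bp in JK05 (score 159) and −8727 bp in JK06 (score 409). An SMC-3 summit lay at −8732 bp in JK06 (score 139). Neither combined CA1200 set listed a peak there, while the HW04 lists of SMC-3, PQN-85 and H4K20me1 did. The difference between strains at that site was not tested.

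In the combined sets the nearest SMC-3 summit to lips-11 lay 209654 bp upstream in JK05, 23998 bp upstream in JK06 and 23931 bp upstream in CA1200. The CA1200 site, on chromosome II from 1134458 to 1135394, is upstream of pod-2, which encodes acetyl-CoA carboxylase, the enzyme of the first committed step of fatty acid synthesis. It held a peak in 8 of 9 SMC-3 and 7 of 8 PQN-85 lists. The nearest PQN-85 summit lay 23919 bp upstream in JK05, at that site, 7109 bp downstream in JK06 and 22258 bp downstream in CA1200. The JK06 peak, on chromosome II from 1103716 to 1104051, lies inside the neighbouring gene T13B5.9 and was present in 3 of 8 PQN-85 lists and 0 of 9 SMC-3 lists. That peak is identical in the combined and the averaged JK06 lists, which are 2 of the 3. In single SMC-3 lists a nearer summit was listed near sut-1, 12254 bp upstream of lips-11 in JK06 replicate 3 and 12325 bp upstream in HW04 labelled auxin replicate 2. In the combined sets the share of all genes with an SMC-3 summit as near as that of lips-11 was 74.5% in JK05, 82.98% in JK06 and 81.3% in CA1200. For PQN-85 that share was 82.3% in JK05, 55.1% in JK06 and 80.3% in CA1200.

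The gene lips-15 lay in a stretch with loader peaks and no combined SMC-3 peak. The nearest SMC-3 summit was 72150 bp downstream in JK05, 54153 bp in JK06 and 51848 bp in CA1200, and the share of all genes with one as near was 37.3% in JK05, 94.4% in JK06 and 94.07% in CA1200. Within 30 kb of its start PQN-85 had 4 combined peaks in JK05, 4 in JK06 and 3 in CA1200, all downstream. The nearest, on chromosome II from 12615305 to 12615743 in CA1200, is near nspe-6, and its summit lay 9658 bp downstream in JK05 (score 832), 9615 bp in JK06 (score 813) and 9642 bp in CA1200 (score 394). It was listed in 8 of 8 PQN-85 lists and in 0 of 9 SMC-3 lists, and how common that is among all PQN-85 peaks was not counted. A second stood 19910 bp downstream in JK05 with a score of 1138, 19885 bp in JK06 with a score of 1830 and 19897 bp in CA1200 with a score of 1153. The share of all genes with a PQN-85 summit as near as the nearest of lips-15 was 56.4% in JK05, 63.8% in JK06 and 56.6% in CA1200. Loader peaks at such distances are thus not particular to lips-15.

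A weaker site lay just upstream of lips-15, between it and ceh-100, and was absent from the 6 combined sets. It was listed in 4 of 9 SMC-3 lists, namely replicates 3 and 4 of JK06, HW04 labelled auxin replicate 2 and HW04 labelled no auxin replicate 2. It was also listed in 4 of 8 PQN-85 lists, the averaged JK06 list among them. Its summits lay 1471 to 2054 bp upstream of the lips-15 start in the RNA tables, and the nearest gene start was that of ceh-100. RefSeq gives lips-15 2642 bp where the RNA tables give 1061 bp, and which end differs was not checked. From a start further upstream these summits could be nearer, so the distances of lips-15 hold for the start in the RNA tables only. The SMC-3 scores were 31 and 34 in JK06, 140 in HW04 labelled auxin and 32 in HW04 labelled no auxin. The peak names in the HW04 SMC-3 lists state the opposite auxin condition to the labels, so no difference between those conditions is read from them. No H4K20me1 peak of HW04 overlapped any of the 3 genes, and the nearest H4K20me1 summits lay 6921 bp (lips-6) to 89531 bp (lips-15) away. The share of all genes with an H4K20me1 overlap was not counted, so nothing is read from its absence.

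**Figure D5:**
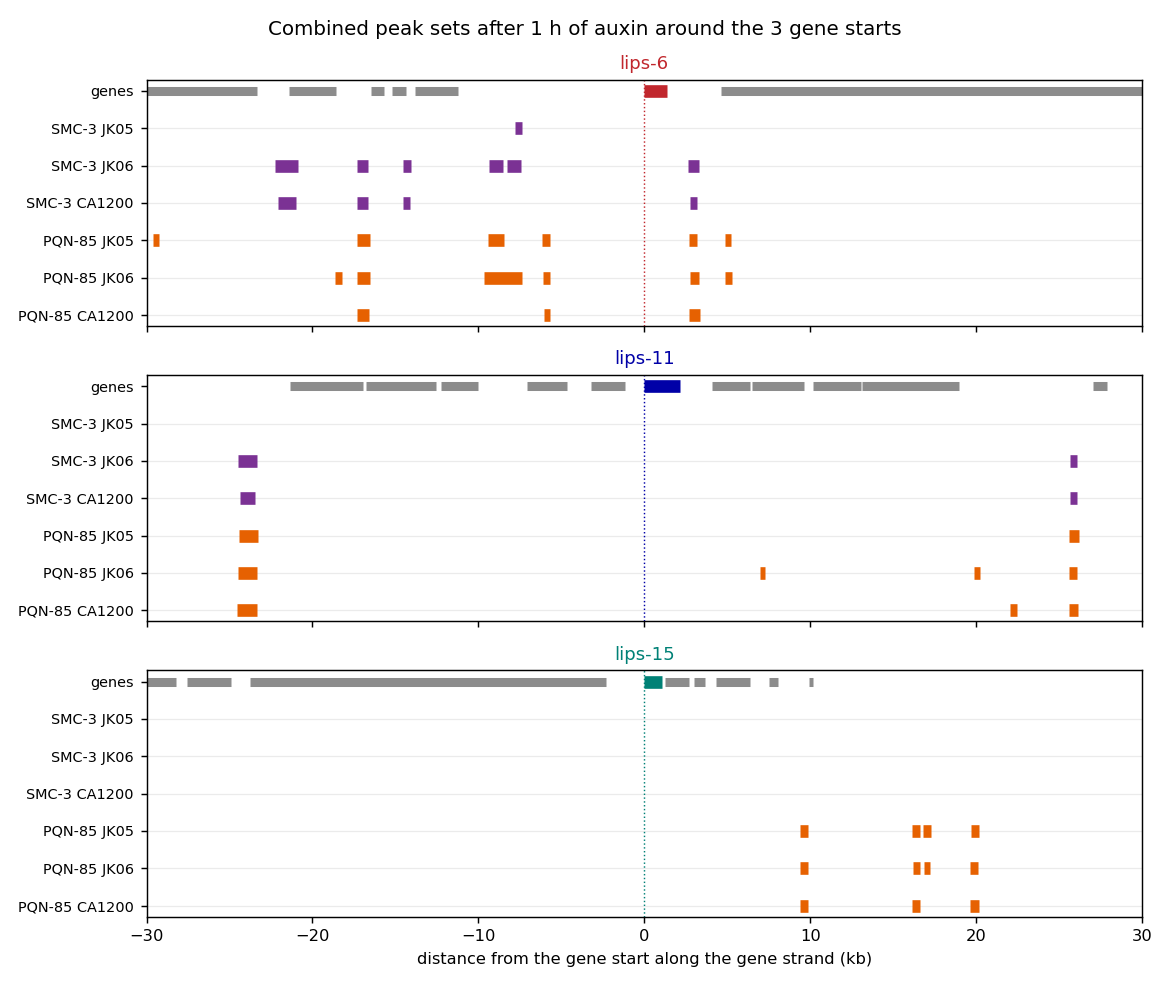
Combined SMC-3 (purple) and PQN-85 (orange) peaks within 30 kb of the starts of lips-6, lips-11 and lips-15, by distance from the start along the gene strand in kb, with JK05, JK06 and CA1200 in rows for each antibody. The top row of each panel shows the gene (coloured) and its 10 nearest listed neighbours (grey); no peak overlaps a coloured gene, and the lips-15 panel has PQN-85 peaks and no SMC-3 peak.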

How the data were processed

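The RNA-seq samples, 2 libraries for each of 3 strains, were analysed from the authors' comparison tables. Reads were aligned with HISAT2 2.2.1, counted with HTSeq 0.13.5 and compared with DESeq2 1.30.0, and peaks came from Bowtie2 2.4.2 and MACS2 2.1.1 or MACS3, per the submitters' processing notes, which name the tools without their roles. Each deposited RNA table gives a gene's log2 fold change over CA1200, the standard error of that value, a Wald score and the p-value before and after adjustment. It also gives the mean normalized count, a signal averaged by the authors over both strains. The authors' deposited peak lists hold a score, the fold enrichment as a ratio and the −log10 q of each peak. With no counts per library the depth is unknown, and precision is given by the tables' standard errors. The series' design text calls the replicates biological.

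From these were computed the strain levels, gene list counts and medians, neighbours and summit distances (Python 3.11.15, pandas 2.3.3, NumPy 2.4.6, matplotlib 3.10.9). The CA1200 level implied by both tables differed by a constant 1.14-fold over 9904 genes with a mean count of at least 100 (quartiles of the log2 ratio 0.188 to 0.190), and JK06 levels were divided by it. Distances are from a summit to the gene start along the gene strand, with negative or upstream values before the start. No source used here states the build of the gene coordinates. Summits within 500 bp of starts on chromosomes II and IV were compared with those starts in the combined sets. The midpoint of the median offsets of both strands lay within 11 bp of the starts, except for 68.75 bp on chromosome IV in the JK05 SMC-3 set. Coordinates that do not match could also give such a midpoint in that window. In the CA1200 SMC-3 set on chromosome II the median genomic offset was −171.5 bp for plus-strand and 162 bp for minus-strand genes, upstream for both. Genes and peaks were set on 1 scale on that basis, and a shared build was not shown. The combined sets of JK06 were deposited under other samples, and the library names within their peak names were followed.

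The members and gene lists were chosen with earlier results of these data known. Named were every lips gene, the nearest and the called neighbours, the called genes of each list or else the one with the largest log2 fold change, and the 3 most similar genes per member. A search for promoter motifs was planned and not run, as no promoter sequences were used. The scripts were tested on simulated data.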

Additional observations from a re-analysis of the deposited data

How the results depend on the processing

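The 3 lips genes remained called in JK05 when p-values were adjusted over all deposited p-values or over genes with a mean count of at least 10. With the first, lips-16 had an adjusted p of 0.0576 and was no longer called, against 0.0487. The number of called genes in JK05 was 60 at an adjusted p under 0.01 and 173 under 0.1, against 105 under 0.05, and 0 in JK06 at each. The median log2 fold change of the lips family in JK05 turned to 0.29 without lips-6, lips-11 and lips-15, against −0.54 with them. Leaving out genes chosen as lower in JK05 could only raise that median. In the combined sets 0.855% (SMC-3 in JK05) to 22.5% (SMC-3 in JK06) of all genes had a summit within 1000 bp of the start. Within 2000 bp the shares were 1.48% to 30.9% in the same sets. In the combined sets windows of 1000 and 2000 bp left 0 of 3 genes near a summit. The distance from peak edge to gene body and the upper part of peaks by score left 0 of 3 too. At 500 bp so did the single and averaged lists of JK06, although lips-15 has summits there at −1616 and −1965 bp (SMC-3) and −1555 bp (PQN-85). Those distances use the start in the RNA tables, and RefSeq gives lips-15 a longer span, whose differing end was not checked. At a mean count of at least 50, 3 of 9 most similar genes were shared. No paired analysis was possible because no values per library were in the tables, and for the same reason the fit with a replicate block and the fits leaving out each replicate were not run. Depth is unknown, and the WAPL-1 table's larger standard errors limit what it can call: at mean counts of 50 to 200 their median was 0.58, against 0.44 in the SMC-3 table.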
